A study of Mus musculus with 6 samples.

Results

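Imprinted genes are transcribed mainly from the copy inherited from 1 parent, and 10 of them that are often described as a network of growth control are the subject here: H19, Meg3, Rian, Mirg, Dlk1, Peg3, Grb10, Mest, Plagl1 and Ndn. They were taken by exact gene symbol from a table of 43283 gene identifiers, and all 10 were found, each once. RNA had been sequenced from mouse muscle stem cells, the cells that rebuild muscle fibres after injury, in 6 libraries. The PGE2 group (3 libraries) was cultured for 24 h with prostaglandin E2, a lipid signal released in injured tissue; its concentration is not given in the labels used here. The Vehicle group (3 libraries) was cultured for the same time with the solvent DMSO. Both groups came from female C57BL/6 mice with no engineered allele stated, aged 8 to 12 weeks by the sample labels and 2 to 4 months by the design text. Cells of both groups were sorted from hindlimb muscle as positive for alpha7 integrin and CD34 and negative for CD11b, CD31, CD45 and Sca1. The culture medium contained 20% fetal bovine serum. RNA came from 5000 to 10000 cells. The libraries are called biological replicates without a statement of separate animals or cultures. The p-values therefore set the difference between the groups against the spread among libraries of a group. Part of that spread may be technical, and it may not be a spread between animals.

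Imprinting rests on DNA methylation set in the egg or sperm at control regions, each of which governs a cluster of neighbouring genes. Many paternally expressed members promote growth and many maternally expressed ones restrain it. H19, Meg3, Rian and Mirg are maternally expressed noncoding RNAs, and Grb10 is maternally expressed in most tissues. Dlk1, Peg3, Mest, Plagl1 and Ndn are paternally expressed proteins. In muscle, Peg3, also called Pw1, marks stem cells and interstitial progenitors, H19 and the Meg3 cluster have been described in quiescent stem cells, and H19 is abundant in differentiating myoblasts. The libraries do not separate the parental copies, so every value is the sum of both.

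PGE2 acts in part through receptors that raise cyclic AMP, which activates the transcription factor CREB, and CREB binds the palindrome TGACGTCA. Promoter windows of 300 bases, 250 before to 50 after a transcript start (RefSeq, GRCm38.p6), were matched by symbol for 9 of the 10 members in 13 windows. The palindrome, which reads the same on both strands, was in 1 of the 2 Meg3 windows and in the Peg3 window, and in no other member window. It was in 1.79% of all 32851 windows and in at least 1 window of 2.03% of 27025 genes. For genes tested for expression below, as Meg3 and Peg3 were, the shares were higher. They were 3.17% of 10818 windows and 3.82% of 8421 genes. The site and 10 bases on each side are shown for the 2 members, with the palindrome in capitals, because these are the only exact matches among the members' windows.
Meg3, chr12:109540929-109540956, plus strand: cagaatgcgcTGACGTCAaagaccaccc
Peg3, chr7:6730580-6730607, minus strand: ctgactccgtTGACGTCAactccgtgcc
The first base of the palindrome lay 57 bases before the Meg3 start and 178 bases before the Peg3 start. The same bases on chromosome 7 lie inside the window of Usp29, which starts next to Peg3 on the opposite strand. The 250 bases before the Meg3 start (chr12:109540746-109540995, plus strand) are shown whole, with the palindrome in capitals, since Meg3 was the one member whose groups did not overlap. That separation is by construction, as described below, and no support for a change.
Meg3 upstream: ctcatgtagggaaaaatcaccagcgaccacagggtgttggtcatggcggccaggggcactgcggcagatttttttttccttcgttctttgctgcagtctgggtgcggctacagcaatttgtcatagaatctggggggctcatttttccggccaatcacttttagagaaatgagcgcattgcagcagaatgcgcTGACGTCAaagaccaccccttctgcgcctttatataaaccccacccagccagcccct
The shorter motif TGACG, searched on both strands and counted wherever it occurs, also inside the palindrome, was in 20.8% of all windows, and among the other member windows in the Dlk1 window and 1 of 2 Grb10 windows. A match of letters is a description and shows no binding.

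Levels are in TPM, a unit scaled to the same total in each library and corrected for transcript length, so that genes can be set side by side. How deeply each library was sequenced cannot be read from TPM, so counting error is not given. Between 15400 and 17710 genes were listed above 0 in the PGE2 libraries and between 16446 and 19677 in the Vehicle libraries. Mitochondrial genes took 22.98% to 30.45% of TPM in PGE2 and 20.93% to 33.63% in Vehicle. The muscle stem cell markers Pax7, Myf5 and Myod1 were present in every library, all 12 markers of that list were tested, and their summed level was 734 to 1027 TPM in PGE2 and 835 to 1043 TPM in Vehicle. Genes that reached 1 TPM in 3 or more libraries were tested with limma on log2(TPM + 1), with Benjamini-Hochberg adjustment over all 12781 of them and a threshold of 0.05. A log2 change is PGE2 minus Vehicle on that scale, on which the change of low genes comes out too small.

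The members covered a wide range of levels, and none passed the test. Grb10, Peg3 and Plagl1 were the most abundant, at means over the 6 libraries of 122, 103.8 and 103.0 TPM, levels above those of 92.4%, 91.3% and 91.2% of tested genes. H19 followed at 48.7 TPM, Mest at 9.74 TPM, Rian at 6.76 TPM and Ndn at 4.41 TPM. Meg3, Dlk1 and Mirg averaged 0.843, 0.397 and 0.278 TPM. The ranges of every neighbouring pair in this order overlapped over the 6 libraries, but within libraries Plagl1 was above H19 in 6 of 6, H19 above Mest in 5 of 6 and Ndn above Meg3 in 6 of 6. Peg3 was above Plagl1 in only 1 of 6 libraries, although its mean was slightly higher.

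**Figure D1:**
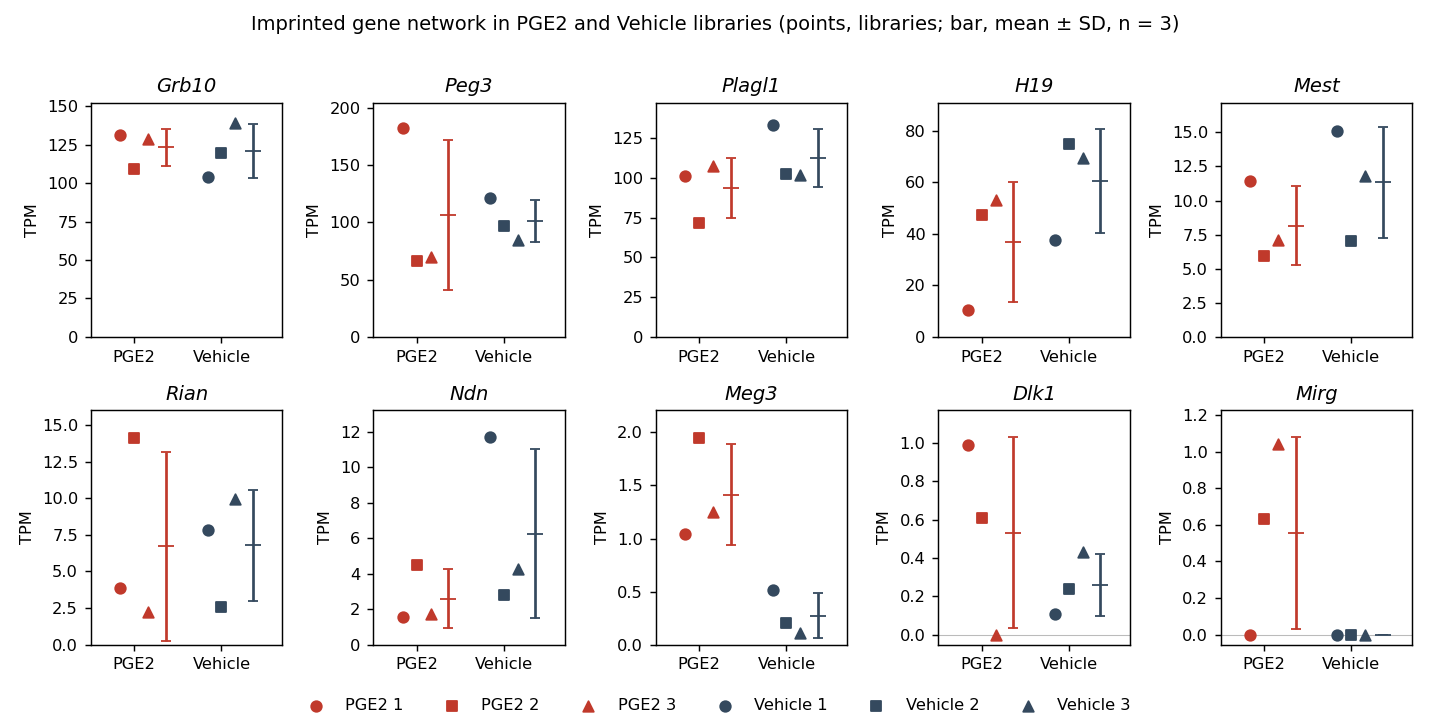
TPM of the 10 members in each library, with PGE2 on the left and Vehicle on the right of each panel; the side bars are mean ± SD of 3 libraries, and each panel has its own vertical axis. Meg3 is the one panel in which the groups are apart, at 1.04 to 1.95 TPM in PGE2 and 0.11 to 0.51 TPM in Vehicle, and PGE2 1 is the lowest library for H19 and the highest for Peg3.

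Of the 10 members, 8 were tested, since Dlk1 and Mirg were too low. Of these, 2 had a higher and 6 a lower fitted value with PGE2, and the median log2 change was -0.23, beside -0.07 over all tested genes, of which 43.9% were higher and 56.1% lower. The number past the threshold was 0 of 8 in limma's test, with an adjusted p of 1.00 for each, beside 0.0% of all tested genes. None of the 8 members had an unadjusted p under 0.05, against 3.63% of all tested genes (1.57% higher and 2.06% lower in PGE2). The groups did not overlap for 1 member, Meg3, which was higher in PGE2, and for 8.01% of all tested genes, 3.18% higher in PGE2. The separation of Meg3 is by construction, as described below.

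**Figure D2:**
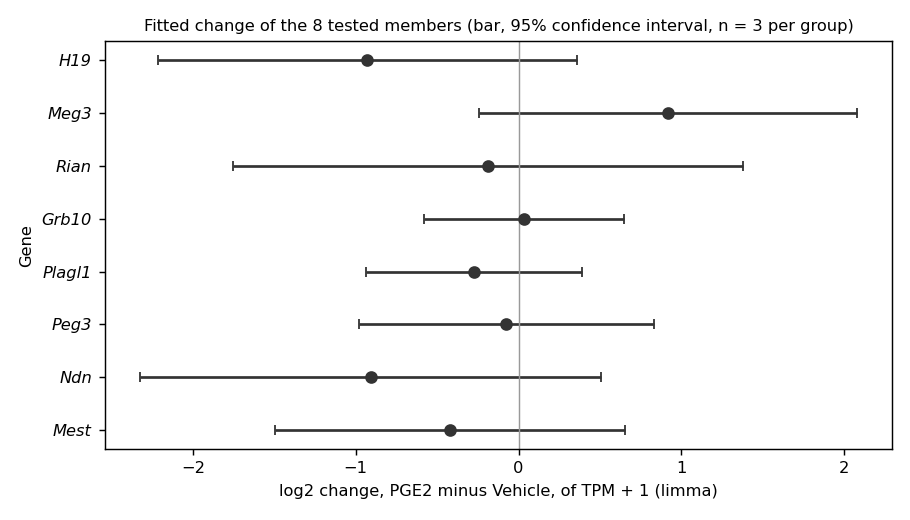
Fitted log2 change of TPM + 1, PGE2 minus Vehicle, of the 8 tested members with 95% confidence intervals from limma (n = 3 per group). Every interval includes 0; that of Grb10 is the narrowest, -0.58 to 0.65, and that of Rian the widest, -1.75 to 1.38.

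Among the noncoding RNAs, H19 (ENSMUSG00000000031, mm10 chromosome 7, 142575529 to 142578143, minus strand) had lower values in PGE2, with overlap. H19 is a maternally expressed RNA that restrains growth and is the precursor of a microRNA, Mir675. It read 10.3, 47.4 and 53.2 TPM in PGE2 1 to 3, against 37.5, 74.7 and 69.2 TPM in Vehicle 1 to 3. PGE2 1 stood far below all the others, and the other 2 PGE2 libraries lay between Vehicle 1 and the other 2 Vehicle libraries. The log2 change was -0.93 ± 0.58 (SE; 95% confidence interval -2.22 to 0.36). Without PGE2 1 it was -0.20, and across the other settings tried it stayed negative. Markers of differentiated muscle had a lower summed level in the PGE2 libraries. For the 12 listed genes found, the sum was 24.1 to 34.3 TPM in PGE2 and 47.9 to 81.4 TPM in Vehicle. Ttn and Neb, genes of giant filament proteins, made up most of it in every library but PGE2 2. Of the 7 tested, 6 had lower fitted values (56.1% of all tested genes), 3 had an unadjusted p under 0.05 (3.63% of all tested genes) and none passed the threshold. The 3 were Tnnt1, Ttn and Acta1. Acta1 read 0.90, 3.47 and 0.81 TPM in PGE2, against 3.79, 6.71 and 6.82 TPM in Vehicle. The smallest p of the 3 was that of Tnnt1, listed at 0 in each PGE2 library. Tnnt1 was tested only because all 3 Vehicle libraries reached 1 TPM, so its separation is by construction and no support for a change. Ttn read 9.71, 10.8 and 4.90 TPM in PGE2, against 44.2, 19.6 and 14.1 TPM in Vehicle, and Neb, whose groups overlapped, 10.6, 3.12 and 17.8 TPM in PGE2, against 22.9, 16.4 and 10.7 TPM in Vehicle. The part of these genes in the H19 values was not tested.

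Igf2, the paternally expressed growth factor that shares control elements with H19, was low. It read 2.89, 0.65 and 1.06 TPM in PGE2, against 2.12, 5.01 and 4.82 TPM in Vehicle. The groups overlapped because PGE2 1 exceeded Vehicle 1, and the log2 change was -1.02 (95% confidence interval -2.34 to 0.31). Igf2r, the maternally expressed receptor that removes IGF2, read 19.8, 9.50 and 6.84 TPM in PGE2, against 11.4, 32.9 and 12.6 TPM in Vehicle. The cyclin-dependent kinase inhibitor gene Cdkn1c, another imprinted growth restrainer, was listed at 0 in all 6 libraries, as was the Mir675 gene. A 0 in this table says nothing of mature microRNAs, which such libraries do not capture well.

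Meg3 (ENSMUSG00000021268, mm10 chromosome 12, 109541001 to 109571726, plus strand), a maternally expressed long noncoding RNA, was low in both groups, and its lowest PGE2 value exceeded its highest Vehicle value. It read 1.04, 1.95 and 1.25 TPM in PGE2, against 0.51, 0.20 and 0.11 TPM in Vehicle. The means were 1.41 ± 0.48 TPM in PGE2 and 0.273 ± 0.21 TPM in Vehicle (SD, n = 3 each), a ratio of 5.17. On the log2(TPM + 1) scale the change was 0.92 ± 0.52 (SE; 95% confidence interval -0.24 to 2.08; limma p = 0.109, Benjamini-Hochberg adjusted p = 1.00), and an exact two-sided permutation test over the libraries gave p = 0.10, the smallest that 3 against 3 allows.

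Meg3 entered the test only because all 3 PGE2 libraries, and no Vehicle library, reached 1 TPM. In all, 77 genes (0.602% of those tested) entered in that way, and all 77 are separated by construction. The separation of Meg3 is therefore a description and no support for a change. Its permutation p was fixed by that separation, and its limma p carries the same selection, so neither is support for a change. Because of this way of entry, neither a library left out nor another pseudocount could turn its sign. Its log2 change ran from 0.76 to 2.12 over 16 settings (2.12 with a pseudocount of 0.1 TPM), and with a filter of 5 TPM it was not tested. The sort was negative for Sca1, a surface marker of fibro-adipogenic cells encoded by Ly6a. The summed level of fibro-adipogenic markers was 40.6 to 56.2 TPM in PGE2 and 25.3 to 37.3 TPM in Vehicle, over 13 genes of which 4 were tested, 1 with a higher and 3 with lower fitted values. The higher one, the collagen gene Col3a1, made up most of the sum. Ly6a read 0, 13.55 and 0 TPM in PGE2, against 2.22, 3.38 and 7.92 TPM in Vehicle. The collagen gene Col1a2 read 0.22, 6.12 and 0 TPM in PGE2, against 1.74, 0.84 and 1.63 TPM in Vehicle. Among the 9 untested markers, Col1a1 reached 14.4 TPM in PGE2 3 and at most 0.44 TPM in any other library. The other 8, Pdgfra and Dcn among them, stayed at or below 1.84 TPM, and Pi16 was listed at 0 in every library. The part of these markers in the Meg3 values was not tested, and in bulk RNA fewer cells of a type and less RNA per cell cannot be told apart.

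Rian and Mirg lie downstream of Meg3 on the same strand, host small nucleolar RNAs and microRNAs, and are thought to be made largely as one long transcript with it. Rian (ENSMUSG00000097451, chromosome 12, 109603940 to 109661716) read 3.87, 14.1 and 2.19 TPM in PGE2, against 7.84, 2.59 and 9.93 TPM in Vehicle. Both groups covered nearly the same range, and the log2 change was -0.19 (95% confidence interval -1.75 to 1.38). The sign turned without PGE2 3, without Vehicle 3 and with library weights. Mirg (ENSMUSG00000097391, chromosome 12, 109729764 to 109749460) read 0, 0.63 and 1.04 TPM in PGE2 and was at 0 in each Vehicle library. It was not tested in the fit, and an exact two-sided permutation test gave p = 0.40.

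The members of the cluster were not parallel across libraries. The ratio of Rian to Meg3 within a library, in TPM, was 3.72, 7.25 and 1.75 in PGE2, against 15.4, 12.95 and 90.3 in Vehicle. These ratios do not overlap between the groups, and they carry the separation of Meg3, which is in the denominator and near 0 in Vehicle 3. Of 2 other cluster transcripts tested, Gm37899 read 1.21, 3.41 and 1.78 TPM in PGE2, against 1.69, 1.05 and 0.77 TPM in Vehicle. B830012L14Rik read 0.80, 1.60 and 1.11 TPM in PGE2, against 1.35, 0.93 and 0.12 TPM in Vehicle. In both, PGE2 2 was the highest library and the groups overlapped. PGE2 2 was also the highest library for Meg3 and Rian. None of 66 microRNA genes and none of 23 small nucleolar RNA genes between Dlk1 and Dio3 was listed above 0.

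**Figure D3:**
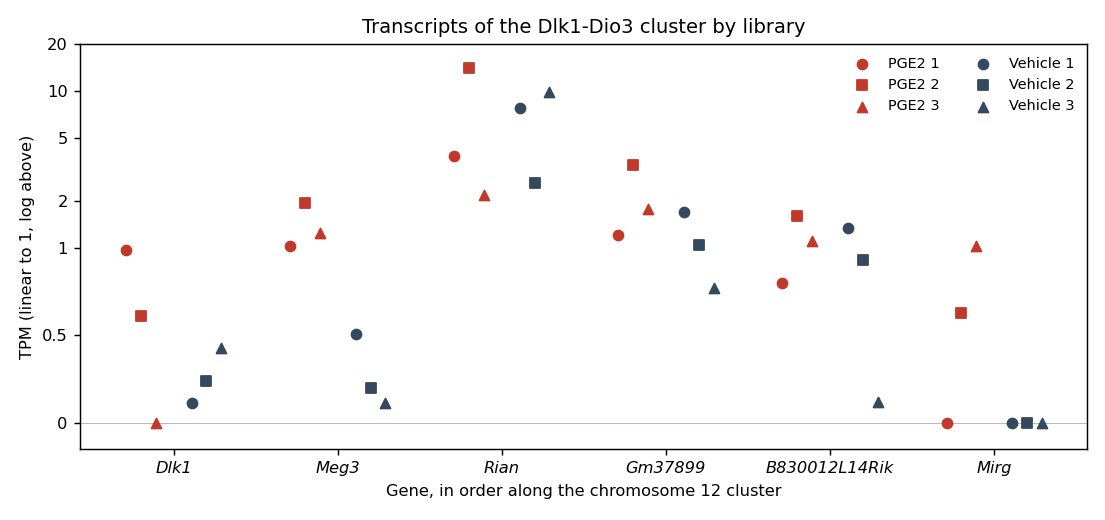
TPM of 6 transcripts of the Dlk1-Dio3 cluster, in their order along chromosome 12, for the 3 PGE2 and 3 Vehicle libraries; the vertical axis is linear up to 1 TPM and logarithmic above. Rian is the highest of them, at 2.19 to 14.1 TPM in PGE2 and 2.59 to 9.93 TPM in Vehicle, and Meg3 is the one whose groups do not overlap.

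Dlk1, the paternally expressed gene at the other end of the cluster, encodes a membrane protein related to Notch ligands that holds back fat cell differentiation. It read 0.99, 0.61 and 0 TPM in PGE2, against 0.11, 0.24 and 0.43 TPM in Vehicle. PGE2 3 was the lowest library of all and PGE2 1 the highest. Dlk1 (ENSMUSG00000040856, chromosome 12, 109452823 to 109463336, plus strand) did not pass the filter, and an exact two-sided permutation test gave p = 0.50. Rtl1, a paternally expressed gene of the cluster, reached 0.09 TPM in 1 library, and Dio3 was listed at 0.

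Grb10 (ENSMUSG00000020176, chromosome 11, 11930508 to 12038683, minus strand) encodes an adaptor that binds the insulin and IGF1 receptors and restrains their signals. It was the steadiest member, with 131.5, 109.3 and 128.7 TPM in PGE2, against 103.8, 119.3 and 139.1 TPM in Vehicle. The log2 change was 0.03 ± 0.28 (SE; 95% confidence interval -0.58 to 0.65), and its residual SD was above that of only 3.12% of the 8370 genes averaging at least 5 TPM. The sign turned without Vehicle 1, PGE2 1 or PGE2 3, with values of -0.07, -0.02 and -0.00017. Its neighbour Ddc, an enzyme of amine synthesis, read 2.87, 0 and 2.75 TPM in PGE2, against 1.26, 0.66 and 1.64 TPM in Vehicle.

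Plagl1 (ENSMUSG00000019817, chromosome 10, 13060504 to 13131694, plus strand), also called Zac1, encodes a zinc finger transcription factor that in mice regulates other imprinted genes, H19 and Igf2 among them. It read 101.5, 71.9 and 107.2 TPM in PGE2, against 133.2, 102.6 and 101.7 TPM in Vehicle. PGE2 2 and Vehicle 1 were the extremes, and the other 4 libraries lay within 6 TPM of each other. The log2 change was -0.27 ± 0.30 (SE; 95% confidence interval -0.94 to 0.39). It kept its sign in all 17 alternative settings, between -0.38 and -0.10 (-0.10 without PGE2 2).

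Peg3 (ENSMUSG00000002265, chromosome 7, 6703892 to 6730431, minus strand) encodes a large zinc finger protein that takes part in p53-linked and stress responses. It read 182.3, 66.8 and 70.2 TPM in PGE2, against 121.7, 97.2 and 84.9 TPM in Vehicle. PGE2 1 was above, and the other 2 PGE2 libraries below, every Vehicle library, so the 3 PGE2 libraries lay on both sides of the Vehicle range. The means were 106.4 ± 65.7 TPM in PGE2 and 101.3 ± 18.7 TPM in Vehicle (SD, n = 3 each), with a log2 change of -0.08 (95% confidence interval -0.98 to 0.83). On the log2(TPM + 1) scale the SD of Peg3 was 0.81 in PGE2 and 0.26 in Vehicle. A wider spread in PGE2 was not particular to Peg3. The median SD of the 8370 genes averaging at least 5 TPM was 0.59 in PGE2 and 0.37 in Vehicle. Without PGE2 1 the log2 change was -0.54 (limma, Benjamini-Hochberg adjusted p = 0.651, and 0.651 to 1.00 over all alternatives), and it was above 0 without PGE2 2, PGE2 3 or Vehicle 1. In PGE2 1 H19 was at its lowest and the stem cell marker Pax7 at its highest (67.0, 30.3 and 23.9 TPM in PGE2, against 56.7, 47.9 and 33.3 TPM in Vehicle). The other stem cell markers listed were divided in PGE2 1. Myod1, Vcam1, Megf10, Itga7, Chrdl2 and Cdh15 were also at their highest there. Myf5, Des and Sdc4 were at their lowest, and Cd34 and Calcr at neither end. The ratio of Peg3 to H19 was 17.7 in PGE2 1 and 1.41 and 1.32 in the other PGE2 libraries, against 3.24, 1.30 and 1.23 in Vehicle.

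Usp29, a paternally expressed gene whose start lies next to that of Peg3 on the opposite strand, read 1.36, 7.29 and 5.64 TPM in PGE2, against 1.29, 0.70 and 4.34 TPM in Vehicle. Its groups overlapped through PGE2 1, and the log2 change was 0.88 (95% confidence interval -0.66 to 2.42), with 1.43 without PGE2 1, 0.53 without PGE2 2 and 0.53 without Vehicle 2. Peg3 was high and Usp29 low in PGE2 1. Zim1, a maternally expressed neighbour, stayed at or below 2.62 TPM and was not tested.

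Ndn (ENSMUSG00000033585, chromosome 7, 62346569 to 62350262, plus strand) encodes necdin, a MAGE family protein that binds E2F1 and restrains cell division. It read 1.54, 4.49 and 1.74 TPM in PGE2, against 11.7, 2.79 and 4.24 TPM in Vehicle. Vehicle 1 was well above the rest, and without it the log2 change of -0.91 (95% confidence interval -2.32 to 0.51) was -0.40. In the same imprinted domain, which is deleted in Prader-Willi syndrome, the small nuclear ribonucleoprotein gene Snrpn read 0.65, 0 and 0.75 TPM in PGE2, against 3.00, 3.08 and 2.70 TPM in Vehicle. Every PGE2 library was below every Vehicle library (log2 change -1.46, 95% confidence interval -2.66 to -0.27; limma, Benjamini-Hochberg adjusted p = 1.00). Snrpn entered the test only because all 3 Vehicle libraries, and no PGE2 library, reached 1 TPM. Its separation is therefore by construction and no support for a change. Snrpn shares its locus with Snurf and with the protein-coding entry Gm38393 on the same strand, and reads may have been split among the 3. Gm38393 was higher than Snrpn in 5 of 6 libraries and its groups overlapped, with 3.36, 3.66 and 6.31 TPM in PGE2, against 7.32, 1.29 and 12.8 TPM in Vehicle (log2 change -0.27, 95% confidence interval -1.83 to 1.28). Snurf read 0, 0 and 13.3 TPM in PGE2, against 0, 5.25 and 0.95 TPM in Vehicle. Peg12 read 4.18, 8.27 and 4.70 TPM in PGE2, against 6.68, 6.41 and 4.41 TPM in Vehicle, and Magel2 and Mkrn3 stayed at or below 1.07 TPM.

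Mest (ENSMUSG00000051855, chromosome 6, 30723547 to 30748465, plus strand) encodes a protein of the alpha/beta hydrolase fold that is tied to fetal and fat tissue growth. It read 11.4, 5.90 and 7.13 TPM in PGE2, against 15.1, 7.07 and 11.8 TPM in Vehicle. In both groups library 1 was the highest and library 2 the lowest, and the log2 change was -0.42 (95% confidence interval -1.50 to 0.66). It was -0.20 without Vehicle 1, -0.24 without PGE2 2, -0.66 without PGE2 1 and -0.70 without Vehicle 2. Its neighbour Copg2, a coat protein gene whose end overlaps that of Mest on the opposite strand, read 7.51, 9.51 and 2.48 TPM in PGE2, against 5.77, 10.5 and 13.3 TPM in Vehicle. Whether strand was used in counting is not given in the sources used here, so reads from the overlap cannot be assigned.

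The profiles of the members across the 6 libraries were compared by the root mean square difference of log2(TPM + 1) after centring each gene on its mean. H19 was the farthest of the 8 tested members from each of the other 7, with 1.34 for Peg3 as the largest. The smallest difference between members was 0.301, between Grb10 and Plagl1, followed by 0.304 between Mest and Plagl1. These differences were not scaled for how much each gene varied. They follow in part the size of the variation, and not only its pattern. The residual SD was 0.97 for H19 and 1.02 for Rian, but 0.18 for Grb10 and 0.27 for Plagl1. The protein-coding genes nearest to Grb10 among 7383 compared were Utp14b (0.050), Baz1a (0.0605) and Gkap1 (0.0763). Since Grb10 varied little, genes near it by this measure also varied little.

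Beyond the members, a list of 67 other imprinted genes was examined, of which 63 were in the table, 8 were at 0 throughout and 37 were tested. Whether each is imprinted in these cells cannot be read from libraries that do not separate the parental copies. Of the 37, 9 had higher and 28 lower fitted values in PGE2 (56.1% of all tested genes were lower), with a median log2 change of -0.30, 2 had an unadjusted p under 0.05 (3.63% of all tested genes did) and 0 passed limma's test after adjustment. The groups did not overlap for 3, all lower in PGE2, where 4.84% of all tested genes were so. These were Gatm, Snrpn and Gnas. Gatm and Snrpn were also the 2 with an unadjusted p under 0.05. Snrpn was tested only through its 3 Vehicle libraries, so its separation is by construction and its place in these counts is no support for a change. Gatm, an enzyme of creatine synthesis that is imprinted in mouse placenta, read 11.9, 13.25 and 14.2 TPM in PGE2, against 26.8, 26.6 and 36.2 TPM in Vehicle. Its log2 change was -1.12 (95% confidence interval -1.91 to -0.33; limma, Benjamini-Hochberg adjusted p = 1.00) and stayed between -1.19 and -0.98 with any library left out. Gnas, which encodes the G protein subunit that couples PGE2 receptors to adenylyl cyclase, read 252.4, 408 and 403 TPM in PGE2, against 498, 524 and 472 TPM in Vehicle, with a log2 change of -0.52 (95% confidence interval -1.19 to 0.15), and -0.29 without PGE2 1. Nnat, a small membrane proteolipid, read 1.5, 0 and 0.52 TPM in PGE2, against 4.07, 1.28 and 1.94 TPM in Vehicle, and overlapped. Gnas overlaps the antisense gene Nespas, and reads of the pair cannot be told apart where strand was not used.

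**Figure D4:**
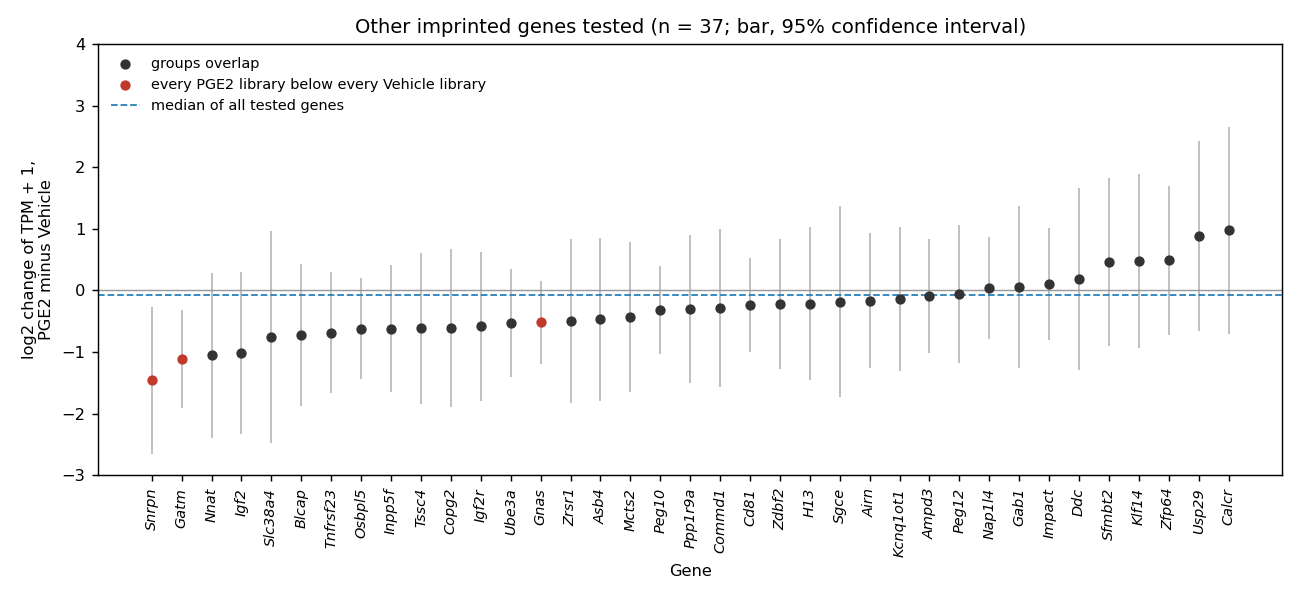
Fitted log2 change of TPM + 1, PGE2 minus Vehicle, of the 37 other imprinted genes tested, from the lowest to the highest, with 95% confidence intervals from limma (n = 3 per group); the dashed line is the median of all tested genes, -0.07. Points lie below 0 for 28 genes, and Snrpn, Gatm and Gnas are those whose PGE2 libraries all lie below the Vehicle libraries. For Snrpn, tested only through its Vehicle libraries, this is so by construction.

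Factors that set or read imprints were near the background. Of 20 listed, 15 were tested, 7 with higher and 8 with lower fitted values, a median log2 change of -0.06, no separation of the groups and none past the threshold. The count of lower ones was 13 without PGE2 1 and 5 without PGE2 3. Ctcf, which insulates H19 from Igf2, read 51.9, 23.2 and 36.2 TPM in PGE2, against 41.8, 39.0 and 48.7 TPM in Vehicle. Dnmt1, which copies DNA methylation at replication, read 137, 50.8 and 40.9 TPM in PGE2, against 100.2, 79.9 and 55.3 TPM in Vehicle. Ehmt2, a histone methyltransferase, read 25.0, 1.84 and 4.27 TPM in PGE2, against 8.44, 8.53 and 12.5 TPM in Vehicle, and Kdm1b, a histone demethylase, 31.5, 21.5 and 15.3 TPM in PGE2, against 33.7, 18.6 and 9.45 TPM in Vehicle. In PGE2 1 Ctcf and Dnmt1 were the highest of the 6 libraries, as Peg3 was.

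Of 29 genes of the growth factor, Notch, p53, E2F and fat cell pathways through which members are known to act, 22 were tested, 4 with higher and 18 with lower fitted values, with a median log2 change of -0.17. Over all tested genes 56.1% were lower. Of the 22, 1 had an unadjusted p under 0.05 (3.63% of all tested genes) and 0 passed limma's test after adjustment. Without PGE2 2 the count of lower ones was 10. The groups did not overlap for 3, all lower in PGE2 (4.84% of all tested genes). The fat cell regulator Pparg was listed at 0 in the PGE2 libraries and read 2.78, 7.80 and 1.52 TPM in Vehicle (limma, Benjamini-Hochberg adjusted p = 1.00). It was the 1 gene with an unadjusted p under 0.05. Pparg was tested only through its 3 Vehicle libraries, so its separation is by construction and no support for a change. The retinoblastoma gene Rb1 had a log2 change of -0.76 (95% confidence interval -1.54 to 0.01), and Smad1, a mediator of BMP signals, of -0.50 (-1.22 to 0.23). Igf1, a ligand of the receptor that Grb10 binds, read 0.17, 14.2 and 4.26 TPM in PGE2, against 2.02, 0.80 and 0 TPM in Vehicle.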

How the data were processed

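Per the submitters' processing notes, reads were processed with STAR and RSEM on the mouse build mm10; their versions and settings, and which annotation was used, were not given in the sources. Per the labels' protocols, cDNA was amplified with a NuGEN kit before library construction. The authors deposited 1 table of TPM for all 6 libraries. Its header does not state the unit, which was inferred from values with decimals that sum to between 992357 and 995645 per library. Read depth is unknown. No 2 libraries were identical. Of 43283 identifiers, 42782 were found in GENCODE M21, which gave positions.

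Genes reaching 1 TPM in 3 or more libraries were fitted with limma 3.58.1 in R 4.3.3 (mean-trend variance prior) on log2(TPM + 1), two-sided, with Benjamini-Hochberg adjustment over 12781 genes, and the fit was tested on simulated data. Python 3.11.15 made the tables. Lists were described by counts and medians, with no list test. Named genes were the members, genes of their imprinted domains, genes from among the 4 with the smallest p in each list and the 3 protein-coding genes nearest to Grb10 in profile. Igf2r, Airn, Cdkn1c, Pax7, Myod1, Neb, Col1a1, Pdgfra, Dcn, Pi16 and Nespas were added after values were seen. So were Itga7, Cdh15, Sdc4, Cd34, Megf10 and Chrdl2. The members and lists were chosen with earlier results of these data known. Alternatives covered the pseudocount, filter, scaling, variance prior, library weights, replicate block and each library left out.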

Additional observations from a re-analysis of the deposited data

How the results depend on the processing

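Under 17 alternative settings, no member passed the threshold, and 5 of the 8 tested members kept their sign in each setting in which they were tested. One of the 5, Meg3, is separated by construction, so that leaving out a library could not turn its sign. Of 134 member log2 changes under these settings, 10 turned sign, all of them for Grb10, Peg3 or Rian. Peg3 was at 0.0046 after quantile normalization and Rian at 0.19 with library weights; Ddc was at -0.36 with a pseudocount of 0.1 TPM. With each library left out in turn, log2 changes ran from -0.069 to 0.14 for Grb10, -0.54 to 0.18 for Peg3, -0.83 to 0.29 for Rian, -1.33 to -0.20 for H19 and 0.76 to 1.05 for Meg3. They ran from -0.15 to 0.83 for Ddc, from -0.31 to 0.11 for Peg12, from -0.55 to 0.012 for Ctcf and from -0.73 to 0.13 for Dnmt1. Over all genes, 0 passed and 464 had an unadjusted p under 0.05 in limma. The count past the threshold was 1 with a robust variance prior, 4 without a mean trend and 0 to 2 with a library left out (2 without PGE2 3), none of them a member. The count with an unadjusted p under 0.05 was 257 with a filter of 5 TPM and 314 to 979 with a library left out (979 without PGE2 1, 758 without PGE2 3). The replicate numbers were not shown to pair the libraries: same-numbered libraries had correlations of deviations of -0.06, -0.04 and 0.07, and with the replicate block 0 genes passed and 482 had an unadjusted p under 0.05. With the block, the H19 p was 0.0381 before adjustment. The causes of these differences were not tested. Unknown depth and TPM under 2 limit Meg3, Dlk1 and Mirg.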
